A study of Mus musculus with 6 samples.

Results

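Mov10, the 4 Argonaute genes Ago1 to Ago4, the 3 TNRC6 genes Tnrc6a to Tnrc6c, Dicer1 and Drosha make up the core of the RNA silencing machinery, and their ribosome footprints were compared between Mov10 knockout (KO) and wild-type (WT) mouse cells. The 10 genes were taken by gene symbol from the deposited table of 56748 genes, and all 10 had reads and were tested. Ribosome profiling counts footprints, the mRNA fragments left inside ribosomes after a nuclease has digested everything around them. The cells were Lin-c-Kit+ cells, a gate for blood progenitors that the labels call hematopoietic stem cells, and in both groups they came 12 days after 4.5 Gy of irradiation. There were 3 KO libraries and 3 WT libraries, and no unirradiated group was analysed here. The labels give neither the kind of Mov10 allele, nor the age or sex of the mice, nor whether each replicate is its own animal. The p-values therefore describe the spread between these libraries, which could be technical.

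In the microRNA pathway the nuclease Drosha, with its partner DGCR8, cuts hairpins out of long transcripts in the nucleus, and exportin 5 carries them to the cytoplasm. Dicer then cuts off the loop, and 1 strand of the remaining duplex is loaded into an Argonaute protein, which finds target mRNAs through the seed near the strand's 5′ end. Argonautes bind TNRC6 (GW182) proteins, which recruit deadenylases and decapping enzymes to the target. MOV10 is an RNA helicase found with Argonautes in human cells and is also known for restricting retrotransposons. The hairpin of miR-223, a microRNA known from myeloid cells, is shown because it marks where Drosha and Dicer act. It lies at chrX:96242817-96242926 (plus strand, RefSeq, GRCm38.p6). The capitals mark both mature arms, so that Drosha cuts at their outer ends and Dicer at their inner ends, next to the loop.
Mir223 hairpin: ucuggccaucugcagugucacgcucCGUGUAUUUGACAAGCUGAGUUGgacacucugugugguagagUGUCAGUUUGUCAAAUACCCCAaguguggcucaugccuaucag
The Mir223 gene itself had no read in any of the 6 libraries of the deposited table.

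The KO libraries held 1118345 to 1352517 reads and the WT libraries 2260348 to 2499634, so depth and genotype went together. A count of 0 allows up to 3 reads, which is 4.02 to 4.85 normalized reads in KO libraries and 1.84 to 2.04 in WT libraries. All levels are normalized reads, that is reads divided by the authors' size factor of the library, and folds and log2 fold changes are KO over WT. A footprint level combines the abundance of a transcript with its ribosome load, and neither transcript levels nor positions within a gene were analysed here. In these bulk samples fewer cells of a type and fewer footprints per cell cannot be told apart. Kit, the receptor that defines the gate, averaged 1122 normalized reads in KO and 1099 in WT. Among 6 progenitor markers 2 were higher in KO (Myb and Mpo) and none lower, and their summed level was 32363 to 33403 in KO and 14817 to 17657 in WT libraries. Mpo, a myeloid gene, made up most of that sum, with a mean of 29006 in KO and 12660.3 in WT. Flt3 averaged 158 in KO and 208 in WT without overlap, and Cd34 73.9 in KO and 99.5 in WT, and neither passed. The summed level of 6 stem cell markers was 30.4 to 72.4 in KO and 72.7 to 85.9 in WT, with none called. Markers that the gate should lack also had reads and moved with genotype. The summed level of 4 B cell markers was 330 to 362 in KO and 118 to 134 in WT with 3 called higher, that of 3 erythroid markers 411 to 569 in KO and 109 to 116 in WT with 1 called higher, and that of 4 mature neutrophil markers 3971 to 4294 in KO and 6740 to 7808 in WT with 2 called lower. The summed levels of 4 T cell markers (43.4 to 77.6 in KO, 43.6 to 57.8 in WT) and 3 macrophage markers (634 to 725 in KO, 479 to 545 in WT) held no called gene, and of 3 stromal and endothelial markers (245 to 356 in KO, 212 to 261 in WT) Col1a1 was higher and Pecam1 lower. None of these classes had a marker at 0 in all libraries of a genotype, and their part in the results was not tested.

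Footprints of the machinery differed in both directions. Drosha and Ago3 fell in KO cells, Dicer1 rose, and the other 7 genes did not pass the test, which was limma on log2(value + 1) over all 17114 genes with a Benjamini-Hochberg adjusted p under 0.05. Thus 3 of 10 genes were called, where 21.2% of all genes tested were, a share of the same order. By direction 1 was higher, against 10.3% of all genes, and 2 were lower, against 10.9%. In 6 of the 10 genes the KO libraries did not overlap with the WT libraries, and this held for 39.8% of all genes tested. Of these 5 lay below, against 22.9% of all genes, and 1 above, against 16.9%. The median log2 fold change of the 10 genes was -0.38, beside -0.17 for all genes tested. All genes tested include many with few reads, and the 10 genes were not compared with genes of equal read level. The KO libraries scattered more than the WT libraries, with a median SD of 0.68 in KO and 0.21 in WT on the log2 scale over all genes tested, while limma takes 1 spread per gene for both. With 1 weight per genotype, 6 of the 10 genes were called, against 19.6% of all genes, the added ones being Mov10, Ago1 and Ago2. On recovered reads edgeR called 5 of the 10 genes (29.5% of all genes it tested) and DESeq2 5 (21.0%), and limma with a replicate block called 5 (19.0%).

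**Figure D1:**
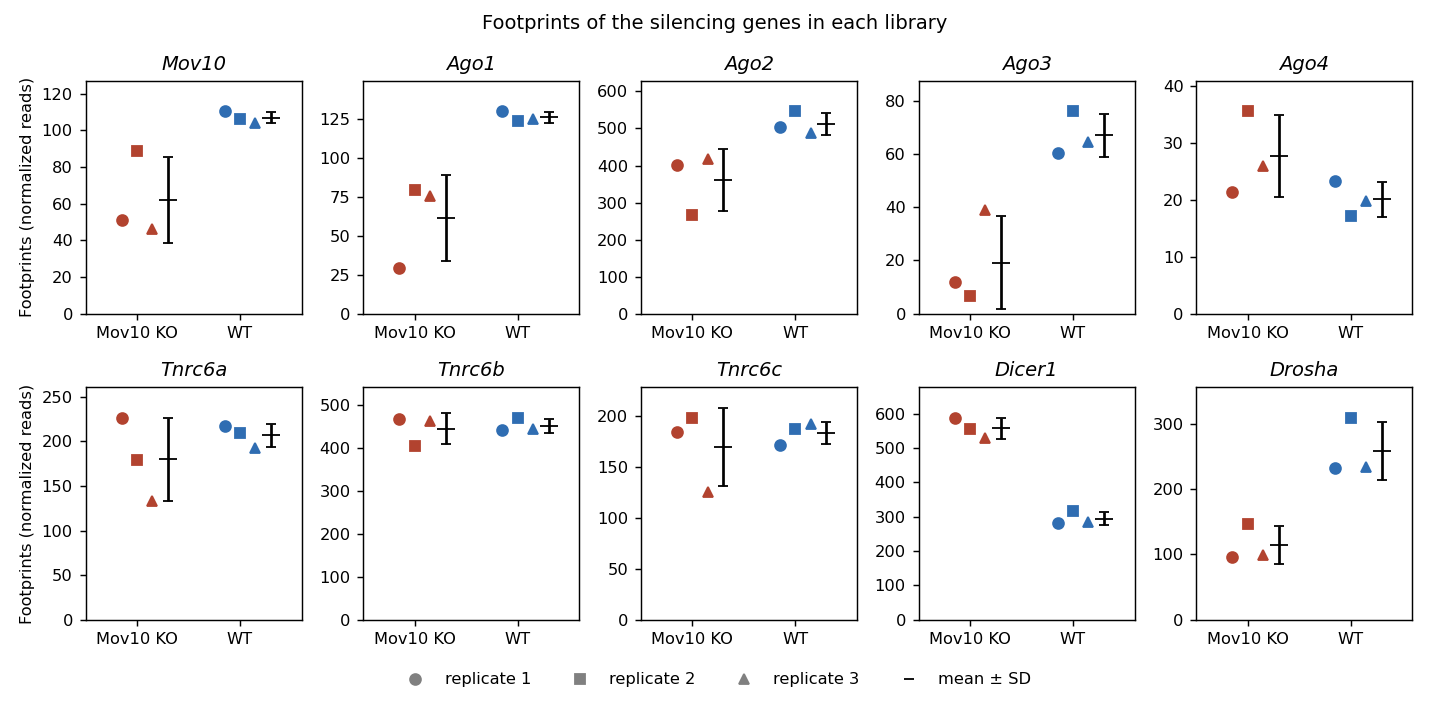
Footprints of each gene in normalized reads (vertical axes, each from 0) in the 3 Mov10 KO libraries (red, left) and the 3 WT libraries (blue, right), with the mean and SD in black. Mov10, Ago1, Ago2, Ago3 and Drosha lie lower in each KO library than in any WT library, Dicer1 lies higher in each, and Ago4 and the TNRC6 genes overlap.

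Mov10 is the gene named as knocked out and so serves to check the labels. Mov10 (ENSMUSG00000002227, chromosome 3, 104702152 to 104725879, minus strand, GRCm39) had 51.0, 89.0 and 46.3 normalized reads in the KO libraries, against 110.4, 106 and 104 in the WT libraries. The KO libraries lay below the WT libraries without overlap, and KO replicate 2 was the nearest to them. The reads behind these values were 38, 55 and 32 in KO and 170, 173 and 153 in WT, so Mov10 footprints were present in the libraries labelled KO. The log2 fold change of Mov10 was -0.84 (SE 0.27, 95% interval -1.45 to -0.22) and missed the threshold (limma, adjusted p = 0.0598). Without KO replicate 2 it was -1.12 and passed (limma, adjusted p = 0.00692), and it passed with 1 weight per genotype (limma, adjusted p = 0.0394). Mov10 passed in 4 of 18 alternatives in all. In the authors' deposited table the log2 fold change of Mov10 was -0.75 with an adjusted p of 0.0580. The scatter of Mov10 among KO libraries was 2.45 times the SD that counting alone would give, and 0.38 times in WT libraries. The 250 bases before the first listed start of Mov10 (chr3:104818564-104818813, minus strand, RefSeq, GRCm38.p6) are shown as the control region of the targeted gene.
Mov10 upstream: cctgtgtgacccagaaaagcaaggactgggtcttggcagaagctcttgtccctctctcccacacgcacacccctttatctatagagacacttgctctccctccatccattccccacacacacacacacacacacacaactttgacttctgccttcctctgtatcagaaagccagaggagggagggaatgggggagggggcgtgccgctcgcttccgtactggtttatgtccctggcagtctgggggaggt
None of the 3 motifs searched, the CCAAT, GC and TATA boxes spelled out with Dicer1 and Drosha, was in this window, so it holds no capitals.

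The 5 genes whose pattern over the 6 libraries was most like that of Mov10, out of 6187 protein-coding genes averaging 50 normalized reads or more, were Iffo1 (Pearson r = 0.997), Plek (0.997), Ttll5 (0.996), Rnf10 (0.995) and Angel2 (0.993). In each of them KO replicate 2 was the highest KO library, as in Mov10. Iffo1 had 89.9, 162 and 73.8 normalized reads in KO, against 215, 208 and 213 in WT. These correlations rest on 6 points in 2 groups that also differ in depth, and they were given no test. Of the other members, Drosha had r = 0.93 with Mov10, Ago1 0.79 and Dicer1 -0.81, over the same 6 points. Tnrc6c had 0.63, Tnrc6a 0.48, Ago2 0.29 and Tnrc6b -0.37, while Ago3 and Ago4 averaged fewer than 50 normalized reads and were not ranked.

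Drosha, the nuclease that begins microRNA processing in the nucleus, fell in KO cells. Drosha (ENSMUSG00000022191, chromosome 15, 12824901 to 12935377, plus strand, GRCm39) had 96.6, 147 and 98.4 normalized reads in the KO libraries, against 232, 309 and 233 in the WT libraries. The groups did not overlap, and replicate 2 was the highest of each genotype. The mean was 114 ± 28.7 in KO and 258 ± 44.2 in WT (SD, n = 3 each), 2.26-fold lower, with a log2 fold change of -1.19 (SE 0.21, limma, adjusted p = 0.00578). The call held under all 18 alternatives run, with log2 fold changes of -1.42 to -0.99 and adjusted p up to 0.0479. In the authors' deposited table its adjusted p was 1.01e-05.

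Dicer1, which encodes the cytoplasmic nuclease that frees the mature duplex, moved the other way and rose in KO cells. Dicer1 (ENSMUSG00000041415, chromosome 12, 104654001 to 104718211, minus strand, GRCm39) had 589, 555 and 528 normalized reads in the KO libraries, against 282, 315 and 286 in the WT libraries. The lowest KO library was well above the highest WT library. The mean was 557 ± 30.4 in KO and 294 ± 18.2 in WT (SD, n = 3 each), 1.89-fold higher, with a log2 fold change of 0.92 (SE 0.10, limma, adjusted p = 0.000528). The scatter of Dicer1 was 1.06 times the counting SD in KO, the smallest such ratio among the 10 genes in KO, and 1.32 times in WT. Its call held under all 18 alternatives, with log2 fold changes of 0.68 to 1.11 and adjusted p up to 0.0278. In the authors' deposited table the adjusted p of Dicer1 was 1.01e-10.

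The opposite movement can be read without any library scaling as the ratio of Dicer1 to Drosha footprints within a library, a ratio chosen after their values were seen and given no test. It was 6.10, 3.77 and 5.37 in the KO libraries, against 1.22, 1.02 and 1.23 in the WT libraries. The ratio was higher in each KO library than in any WT library. It is not corrected for gene length, so its size does not compare the levels of the 2 genes. The sequences before their first listed starts are shown because these were the genes whose calls held in both directions under all alternatives. Capitals mark CCAAT boxes (CCAAT, or ATTGG on the other strand) and GC boxes (GGGCGG, or CCGCCC).
Dicer1 upstream (chr12:104751953-104752202, minus strand, GRCm38.p6): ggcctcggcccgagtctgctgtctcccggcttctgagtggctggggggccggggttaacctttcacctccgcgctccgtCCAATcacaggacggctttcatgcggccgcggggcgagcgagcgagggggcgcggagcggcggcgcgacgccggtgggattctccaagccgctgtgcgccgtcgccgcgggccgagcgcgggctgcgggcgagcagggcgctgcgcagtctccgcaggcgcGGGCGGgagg
Drosha upstream (chr15:12824565-12824814, plus strand, GRCm38.p6): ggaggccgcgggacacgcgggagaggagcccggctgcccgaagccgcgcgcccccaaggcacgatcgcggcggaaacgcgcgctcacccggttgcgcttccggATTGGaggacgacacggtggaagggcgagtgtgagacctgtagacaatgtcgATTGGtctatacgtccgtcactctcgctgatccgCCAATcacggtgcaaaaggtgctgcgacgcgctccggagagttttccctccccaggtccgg
Dicer1 held 1 CCAAT box and 1 GC box in these 250 bases, and Drosha held 3 CCAAT boxes and no GC box. Over the 9 members matched in the promoter table used here, which are all but Ago2, 4 held a CCAAT box and 5 a GC box at their first listed start. Over all 32851 starts in the table, 33.8% held a CCAAT box and 32.7% a GC box in a window of the same length. A TATA box (TATAAA, or TTTATA) was in 0 of 9 members and in 12.4% of all starts. These matches on both strands describe the letters only.

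**Figure D2:**
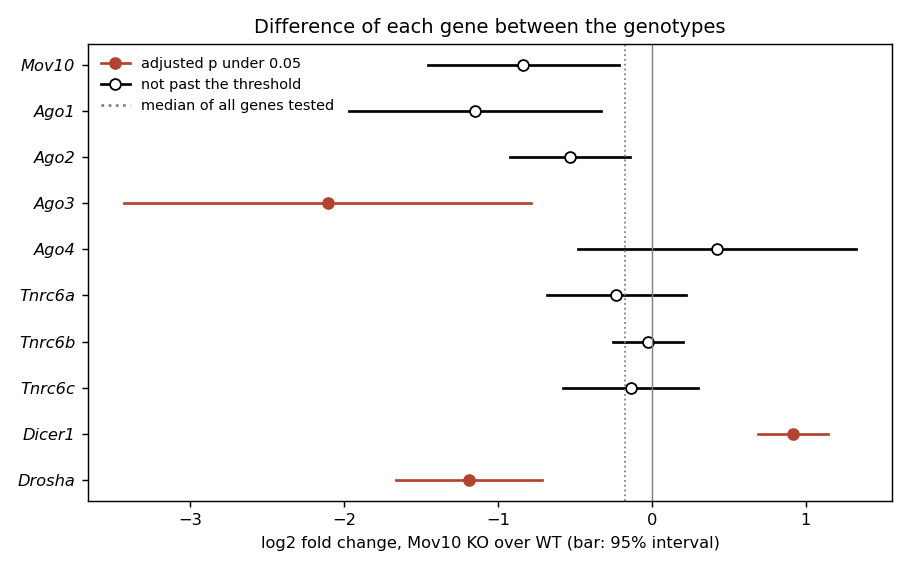
Log2 fold change of each gene (points), Mov10 KO over WT, with its 95% interval from limma (bars), and the median of all genes tested as a dotted line. Ago3 and Drosha (filled, left) and Dicer1 (filled, right) passed the threshold, and the intervals of Mov10, Ago1 and Ago2 lie below 0 without passing after adjustment.

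Argonaute footprints, summed over the 4 genes, were fewer in each KO library than in any WT library. The sums were 465, 387 and 557 normalized reads in KO and 717, 763 and 697 in WT. They averaged 470 ± 85.3 in KO and 726 ± 33.7 in WT (SD, n = 3 each). Of all single genes tested, 22.9% lay lower in KO without overlap. Only Ago3 of the 4 was called, and Ago4 had a higher mean in KO (27.7) than in WT (20.1). Ago2 encodes the member that can itself cleave a fully matched target, and it took most of the Argonaute footprints in all 6 libraries. Ago2 (ENSMUSG00000036698, chromosome 15, 72967693 to 73056784, minus strand, GRCm39) had 402, 265 and 417 normalized reads in the KO libraries, against 504, 546 and 488 in the WT libraries. The groups did not overlap, but the log2 fold change of -0.53 (SE 0.17, 95% interval -0.92 to -0.14) missed the threshold (limma, adjusted p = 0.0583). Without KO replicate 2, the lowest library, it was -0.32 and passed (limma, adjusted p = 0.0450), and without KO replicate 3 it was -0.65 and passed too (limma, adjusted p = 0.0399). It did not pass without KO replicate 1 (limma, adjusted p = 0.0531) or without WT replicate 1, 2 or 3 (limma, adjusted p = 0.175, 0.222 and 0.162). Ago2 overlaps 1711 bp of Chrac1 on the other strand, and Chrac1 had 1.62 to 16.1 normalized reads in KO and 14.3 to 16.9 in WT.

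Ago1, Ago3 and Ago4 lie next to one another on the minus strand of chromosome 4, with 5455 bp between Ago3 and Ago1 and 20957 bp between Ago1 and Ago4. Ago3 (ENSMUSG00000028842, 126225497 to 126323349, GRCm39) fell and had 12.1, 6.47 and 39.1 normalized reads in the KO libraries, against 60.4, 76.1 and 64.7 in the WT libraries. These KO values rest on 9, 4 and 27 reads, and the WT values on 93, 124 and 95. KO replicate 3 held more Ago3 footprints than both other KO libraries together and still lay below the WT libraries. Ago3 averaged 19.2 ± 17.4 in KO and 67.1 ± 8.12 in WT (SD, n = 3 each), 3.49-fold lower, with a log2 fold change of -2.10 (SE 0.58, limma, adjusted p = 0.0347). Its call was lost without KO replicate 1 or 2 (limma, adjusted p = 0.0708 and 0.0550) and without WT replicate 1, 2 or 3 (limma, adjusted p = 0.129, 0.158 and 0.138). The call was also lost after cyclic loess and with no variance trend, and its log2 fold change was between -2.78 and -1.57 over 17 alternatives.
Ago3 upstream (chr4:126429543-126429792, minus strand, GRCm38.p6): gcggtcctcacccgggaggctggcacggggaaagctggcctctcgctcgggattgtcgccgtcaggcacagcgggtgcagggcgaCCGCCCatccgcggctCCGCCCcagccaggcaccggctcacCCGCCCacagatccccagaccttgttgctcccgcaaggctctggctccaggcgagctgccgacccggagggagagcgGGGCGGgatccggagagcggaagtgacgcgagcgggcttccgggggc
The capitals mark 4 GC boxes in this window, which is shown because Ago3 was the called Argonaute gene.

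Ago1 (ENSMUSG00000041530, chromosome 4, 126328805 to 126362376, minus strand, GRCm39) had 29.5, 79.3 and 75.2 normalized reads in the KO libraries, against 129.8, 123 and 125 in the WT libraries. The groups did not overlap, and KO replicate 1 stood apart with 22 reads, while the other KO libraries had 49 and 52. The log2 fold change of Ago1 was -1.15 (SE 0.36, 95% interval -1.97 to -0.33) and missed the threshold (limma, adjusted p = 0.0527). Ago1 passed when KO replicate 1, 2 or 3 was left out (limma, adjusted p = 0.0177, 0.0386 and 0.0454), with log2 fold changes of -0.70, -1.40 and -1.36, and not when a WT library was left out. Ago4 (ENSMUSG00000042500, chromosome 4, 126383334 to 126427265, minus strand, GRCm39) had 21.5, 35.6 and 26.0 normalized reads in KO and 23.4, 17.2 and 19.8 in WT. The groups overlapped, and the log2 fold change of 0.42 had a wide 95% interval of -0.48 to 1.33 (limma, adjusted p = 0.492), on 56 reads in all KO libraries and 93 in all WT libraries. In the authors' deposited table Ago3, Ago1 and Ago2 had adjusted p of 0.00641, 0.0149 and 0.0176. There 5 of the 10 genes were under 0.05, against 11.8% of all 28104 genes with a p, which include many with few reads. The Argonaute genes are close relatives, and whether footprints that match several of them were counted is not given in the sources used here.

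**Figure D3:**
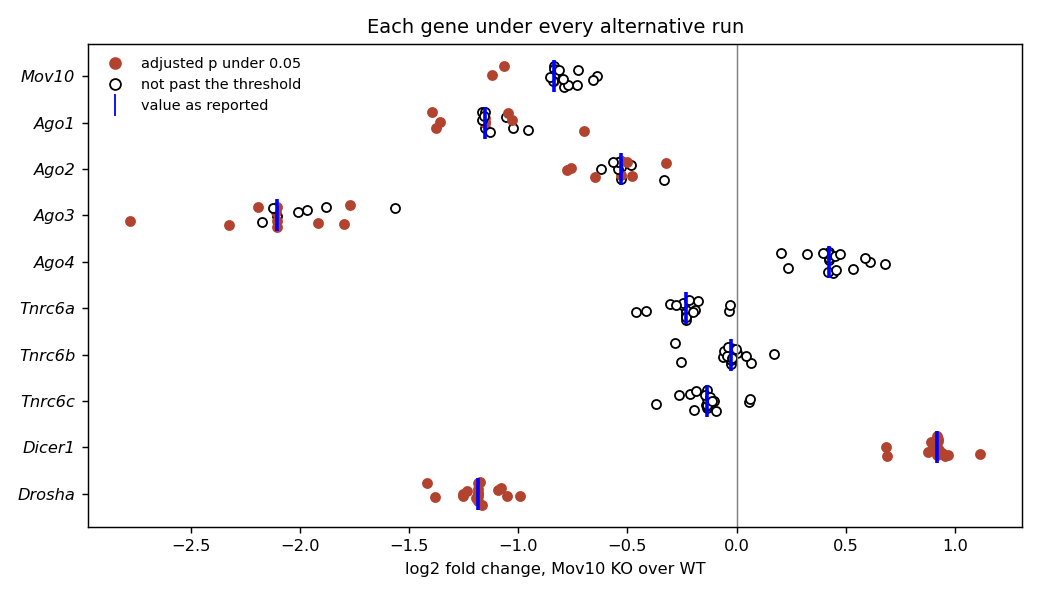
Log2 fold change of each gene, Mov10 KO over WT, under each alternative run (points, filled where the adjusted p was under 0.05, spread vertically for visibility) and as reported (blue). Dicer1 stays between 0.68 and 1.11 and Drosha between -1.42 and -0.99 with all points filled, while Mov10, Ago1, Ago2 and Ago3 hold both kinds.

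TNRC6 genes, whose proteins link Argonautes to the deadenylases, showed no called difference. Tnrc6b (ENSMUSG00000047888, chromosome 15, 80595514 to 80825286, plus strand, GRCm39) had 469, 404 and 464 normalized reads in the KO libraries, against 443, 472 and 445 in the WT libraries. The groups overlapped, and its log2 fold change of -0.026 had the narrowest interval of the 10 genes, -0.25 to 0.20 (limma, adjusted p = 0.881). Tnrc6a (ENSMUSG00000052707, chromosome 7, 122723108 to 122794519, plus strand, GRCm39) had 227, 179.5 and 133 in KO, against 217, 209 and 193 in WT. Its KO libraries reached from below to above the WT libraries, with a log2 fold change of -0.23 (95% interval -0.68 to 0.22, limma, adjusted p = 0.449). Tnrc6c (ENSMUSG00000025571, chromosome 11, 117545115 to 117654265, plus strand, GRCm39) had 185, 199 and 126 in KO, against 172, 187 and 192 in WT, and KO replicate 3 was the low one, as for Tnrc6a. The log2 fold change of Tnrc6c was -0.14 (95% interval -0.57 to 0.30, limma, adjusted p = 0.650). These intervals leave room for differences of moderate size in Tnrc6a and Tnrc6c. The sign of Tnrc6b and of Tnrc6c turned with upper-quartile scaling, at 0.17 and 0.058. Tnrc6b shares 1416 bp with the lncRNA Gm49512 on its strand, which had 5.36 to 16.2 normalized reads in KO and 2.60 to 6.81 in WT. The summed TNRC6 footprints were 881, 783 and 724 in KO and 832, 868 and 829.9 in WT, which overlapped.

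Shares within a family and ratios between families do not depend on how a library is scaled. Of 8 such measures tested, 3 had groups that did not overlap, and none can reach significance, since an exact two-sided permutation test of 3 against 3 gives no p below 0.1. The TNRC6 sum over the Argonaute sum was 1.89, 2.03 and 1.30 in the KO libraries, against 1.16, 1.14 and 1.19 in the WT libraries (exact permutation p = 0.1, adjusted p = 0.267). Ago3 made up 2.59%, 1.67% and 7.01% of Argonaute footprints in KO, against 8.42%, 9.98% and 9.29% in WT (exact permutation p = 0.1, adjusted p = 0.267). Ago4 made up 4.61%, 9.21% and 4.68% in KO, against 3.26%, 2.25% and 2.83% in WT (exact permutation p = 0.1, adjusted p = 0.267). These shares and the ratio are of footprints without a correction for gene length, so they compare the genotypes and not the levels of the genes. The share of Ago2 was 86.5%, 68.6% and 74.8% in KO, against 70.2%, 71.6% and 69.99% in WT, and overlapped (exact permutation p = 0.4, adjusted p = 0.533). The share of Ago1 ranged from 6.34% to 20.5% in KO and from 16.2% to 18.1% in WT. Tnrc6b took 51.7% to 64.2% of TNRC6 footprints in KO and 53.2% to 54.3% in WT, and the shares of Tnrc6a and Tnrc6c overlapped as well.

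**Figure D4:**
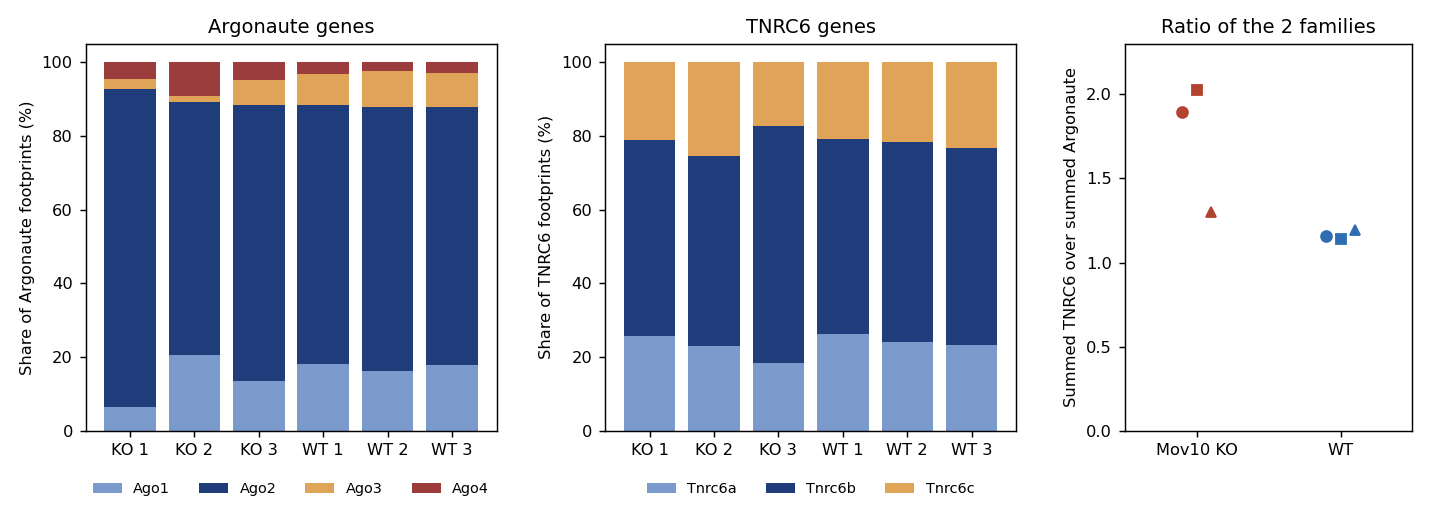
Left and middle, the percent of Argonaute and of TNRC6 footprints on each gene in each library, KO left of WT. Right, the summed TNRC6 over the summed Argonaute footprints, which is 1.30 to 2.03 in KO libraries and 1.14 to 1.19 in WT libraries.

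To order the levels of the 10 genes, footprints were divided by the annotated gene length in kilobases, which includes UTRs and so understates genes with long UTRs. In KO cells the order was Dicer1 at 33.2 ± 1.81 normalized reads per kb, Ago2 at 25.8 ± 5.96, Drosha at 19.2 ± 4.84 and Tnrc6b at 18.8 ± 1.53 (SD, n = 3). Tnrc6a, Tnrc6c, Mov10, Ago1 and Ago4 followed in KO at 14.1, 13.2, 11.1, 7.55 and 3.99, and Ago3 was last at 1.16. Only Dicer1 and Ago2, and Ago4 and Ago3, were neighbours in the KO order whose libraries did not overlap. In WT cells Drosha led at 43.5 ± 7.45 per kb, followed by Ago2 at 36.5 ± 2.15 and Tnrc6b at 19.1 ± 0.686 (SD, n = 3). Mov10, Dicer1, Tnrc6a and Ago1 followed in WT at 19.1, 17.6, 16.3 and 15.5, each overlapping its neighbour from Tnrc6b onward. Tnrc6c at 14.3, Ago3 at 4.05 and Ago4 at 2.89 closed the WT order, each below the gene before it without overlap. Dicer1 was thus at rank 1 of the 10 genes in KO and rank 5 in WT, and Drosha at rank 3 in KO and rank 1 in WT.

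The rest of the pathway was described through 5 lists of 56 genes, of which 49 were tested. Of these 8 were higher and 12 lower in KO cells, 20 of 49 in all, beside 21.2% of all genes tested. That 21.2% includes many genes with few reads. With a filter at a mean of 50 normalized reads, 2690 of 6307 genes tested were called, and 20 of the pathway genes. How many pathway genes this filter left was not counted. The 20 of 49 beside 21.2% is therefore no comparison with genes of equal read level, and no excess is read from it. The lists were chosen with earlier results of these data known, and their share was given no test. Among 12 microRNA processing and loading genes 4 were higher and 2 lower, with a median log2 fold change of -0.19 beside -0.17 for all genes. Xpo5, the exportin of microRNA hairpins, had 1376, 1288 and 1437 normalized reads in KO, against 645, 516 and 553 in WT, with a log2 fold change of 1.26 (SE 0.10, limma, adjusted p = 8.27e-05). Its KO mean was 2.39-fold the WT mean, and the groups did not overlap. Dgcr8, the RNA-binding partner of Drosha, had 629, 623 and 951 in KO, against 492, 473 and 506 in WT, with a log2 fold change of 0.55 (SE 0.16, limma, adjusted p = 0.0404). Drosha and its partner thus moved in opposite directions. Ddx5, a helicase that works with Drosha, and Srrt, a nuclear RNA-binding protein, were higher as well, with log2 fold changes of 0.41 and 0.34. Srrt missed the threshold with 1 weight per genotype (limma, adjusted p = 0.0704). Adar, which edits double-stranded RNA, and Ran, the GTPase of nuclear transport, were lower with log2 fold changes of -1.13 and -0.95. The Dicer partners Tarbp2 and Prkra were read rarely, at 20.1 and 21.2 in KO and 21.6 and 26.1 in WT on average, and did not pass.

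Among the 18 genes of deadenylation and decapping that TNRC6 proteins recruit, 7 were lower and 3 higher in KO cells. Among all genes tested 10.9% were lower and 10.3% higher, but these genes include many with few reads. With the filter at a mean of 50 normalized reads a larger share was called, 2690 of 6307 genes in both directions together. The list was not compared with genes of equal read level. The median log2 fold change of the list was -0.38, beside -0.17 for all genes. Pan3, a subunit of the deadenylase that acts first on the tail, had 201, 219.98 and 145 normalized reads in KO, against 425, 496 and 439 in WT, with a log2 fold change of -1.28 (SE 0.17, limma, adjusted p = 0.00139). Dcp1a, a decapping activator, and Cnot2, a scaffold subunit of CCR4-NOT, were lower by more, with log2 fold changes of -2.41 (SE 0.43) and -2.40 (SE 0.46). The KO values behind them rest on few and scattered reads, 15, 23 and 7 for Dcp1a and 56, 11 and 42 for Cnot2. Cnot6, a catalytic subunit of CCR4-NOT, had a log2 fold change of -0.78. The other lower genes were Cnot7 at -1.05, Pan2 at -0.64 and Ddx6 at -0.38. Cnot7 missed the threshold with 1 weight per genotype (limma, adjusted p = 0.0658). With a replicate block Cnot7 and Pan2 missed it (limma, adjusted p = 0.0877 and 0.0537). Gigyf2 and Eif4enif1, both translational repressors that bind cap-binding proteins, were higher at 0.68 and 0.83, and so was the exonuclease Xrn1 at 0.56. Cnot1, the central scaffold, had 793, 653 and 715 in KO, against 624, 619 and 639.8 in WT, and did not pass (limma, adjusted p = 0.177).

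Among 14 genes of microRNA and Argonaute turnover and regulation 10 were tested and 2 called, which is 20.0% beside 21.2% of all genes tested. Of these Fxr1, an RNA-binding relative of the fragile X protein, was higher with a log2 fold change of 0.50. Tut7, a uridylyltransferase, was lower at -0.37 but missed the threshold with 1 weight per genotype (limma, adjusted p = 0.0672). Of 9 helicases related to Mov10, 8 were tested and 2 were lower, which is 25.0% called beside 21.2% of all genes tested. Both shares are near that of all genes, which include many with few reads. Helz had 85.8, 108 and 103 normalized reads in KO, against 236, 226 and 204 in WT (log2 fold change -1.16, SE 0.16, limma, adjusted p = 0.00172). Upf1, the helicase of nonsense-mediated decay, was lower at -0.44. Mov10l1, the germline relative of Mov10, had 0, 0 and 1.45 normalized reads in KO and 0.649, 0 and 0.681 in WT, under the floor of 3 reads. Of the PIWI clade, the germline relatives of the Argonautes, only Piwil2 had enough reads to be tested, and it did not pass (limma, adjusted p = 0.587).

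**Figure D5:**
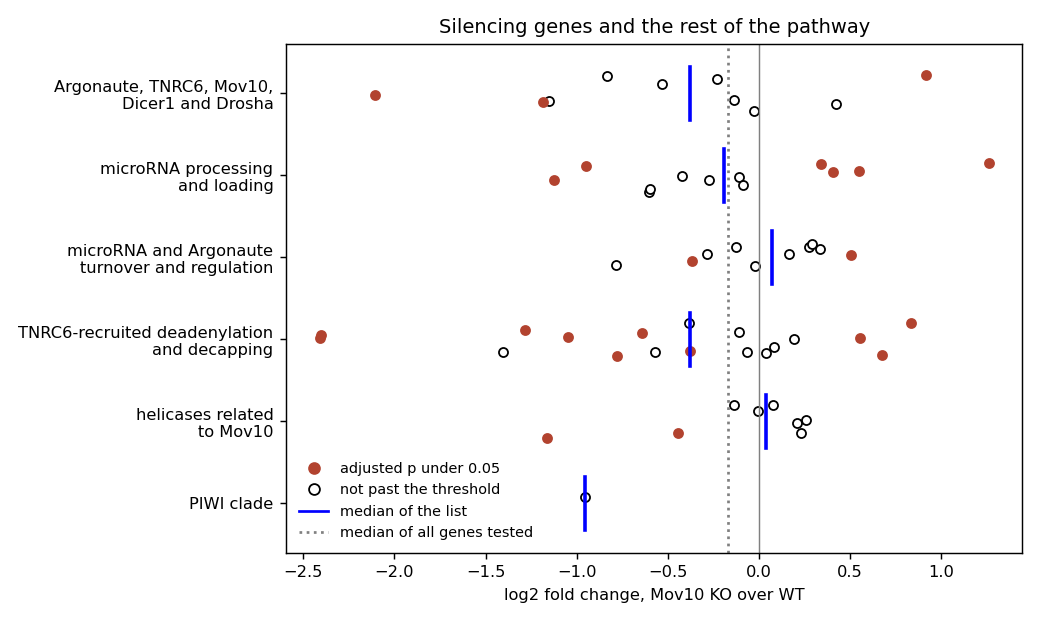
Log2 fold change, Mov10 KO over WT, of each tested gene (points) in the 10 silencing genes and the 5 pathway lists, with the median of each list in blue and that of all genes tested dotted. Points are spread vertically for visibility only. Filled points passed the threshold, and the largest lower values are Dcp1a at -2.41 and Cnot2 at -2.40.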

How the data were processed

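Libraries of 3 Mov10 KO and 3 WT samples were made from footprints cut from a gel at 24 to 36 nt. The deposited signal is each gene's reads over a size factor of its library, since dividing by 1 constant per library gave whole reads (tolerance 0.05 of a read) for 99.98% of the 28136 genes with reads, all but 5. The authors also deposited log2 fold changes and p-values, raw and adjusted, whose test is not given in the sources used here. The genome build is GRCm39, per the submitters' processing notes, and nothing read here names the aligner, counter, annotation or use of strand. Gene lengths are those of the deposited table.

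The 5 other genes were left out. The main test was limma 3.58.1 (R 4.3.3) on log2(value + 1) with a variance trend, over the 17114 genes whose 6 libraries averaged 1 normalized read or more. Alternatives were edgeR 4.0.16 (quasi-likelihood, 3213 genes called) and DESeq2 1.42.0 on recovered reads, other scalings, filters, pseudocount and variance models, thinning, a replicate block and each library left out. Shares were compared with exact permutation tests. Intervals and floors cover counting or replicate error only, and no use of molecular identifiers is stated. The procedure was tested on simulated data with the same scatter beyond counting for all genes and both genotypes. How it handles the wider scatter of the KO libraries was thus not tested. No coding lengths were used, so shares per kb were computed per gene length. The members and lists, and the rule for named genes (all members, up to 4 called genes per list and direction by smallest p, 5 genes most like Mov10), were chosen with earlier results of these data known. Others were named after their values were seen: Cnot1, Cnot7, Pan2, Ddx6, Tarbp2, Prkra, Mov10l1, Piwil2 and the overlapping genes. Tables and figures were made in Python 3.11.15.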

Additional observations from a re-analysis of the deposited data

How the results depend on the processing

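Drosha stayed lower and Dicer1 higher past the threshold in 18 of 18 alternatives each, and Ago3 was called in 10 of 17. Ago1 and Ago2, not called as reported, each passed in 9 of 18 alternatives, and Ago4 and the TNRC6 genes in none. Mov10 passed in 4 of 18, was -0.64 with upper-quartile scaling, and missed with edgeR (adjusted p = 0.0555), DESeq2 (adjusted p = 0.0629) and without each WT library (limma, adjusted p = 0.187 to 0.205). It ranged from -1.12 without KO replicate 2 to -0.66 without KO replicate 3 when each library was left out, passed at -1.06 with library totals, and passed with an unchanged -0.84 with 1 weight per genotype and with a filter at a mean of 50 normalized reads. The number of members called, 3 as reported, was 6 with library totals and with 1 weight per genotype, 5 with edgeR, DESeq2, a filter at a mean of 50 (where Ago3 and Ago4 were not tested) and a replicate block, 2 at an adjusted p under 0.01, and 2 to 5 without each library. Over all genes tested, 4172 of 17145 were called with library totals and 2690 of 6307 with the filter at a mean of 50. The sign of Tnrc6b turned with upper-quartile scaling (0.17), thinning (0.064) and without KO replicate 2 (0.043) or WT replicate 2 (0.0039), ranging from -0.064 to 0.043 without each library. That of Tnrc6c turned with upper-quartile scaling (0.058) and without KO replicate 3 (0.063), ranging from -0.26 to 0.063 without each library. The 20 other pathway genes called became 7 with no variance trend and 8 to 21 without each library. All genes called, 3628 as reported, ranged from 1239 without WT replicate 3 to 4585 without KO replicate 1, with 1449 and 1284 without WT replicates 1 and 2. The median of all genes shifted by 0.18 with upper-quartile scaling, -0.22 with library totals, 0.17 with cyclic loess, -0.13 with a pseudocount of 0.1, 0.12 with edgeR and 0.39 with DESeq2, which kept all genes with reads. The causes were not tested. The planned shares per kb of coding sequence were not run.

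The replicate numbers were shared by the genotypes, and deviations of same-numbered libraries correlated by 0.0119, 0.0128 and -0.00617. KO replicates 1 and 2 correlated best with their own number, and KO replicate 3 did not. With 3 libraries per genotype, values this near 0 cannot show whether same-numbered libraries belong together. Under the replicate block 3245 of all genes and 5 members were called. With reads thinned to equal depth Ago3 was -2.11 (limma, adjusted p = 0.0412) and Ago4 0.40 (limma, adjusted p = 0.570).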
